A study of Daphnia magna with 16 samples.

Results

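These 150 array probes, of 51424 gene probes on the array, showed the deepest drop of transcript signal in 1 animal each of 2 *Daphnia magna* clones whose tryptophan hydroxylase gene (TRH) was edited with CRISPR-Cas9. In the study, total RNA of 16 single females, 4 per clone, was hybridised to Agilent arrays with a single dye, and spot fluorescence reads the level of a probe's transcript. The clones were clone 16 (bi-allelic, TRH -/-), clone 17 (bi-allelic, TRH -/-), T+ (mono-allelic, TRH +/-, clone 13 in the labels) and the unedited wild type W (TRH +/+, clone F in the labels), and each mutant group is a single clonal line. The labels give the age as 5 days in one place and 4 days in another, whereas the methods describe adult females sampled after the reproduction test. The annotation used here names no probe for TRH, so the genotypes were not checked on the arrays. No treatment was applied to any group, and the animals are called here by clone and by the number of their label, 3, 5, 7 or 9.

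Tryptophan hydroxylase catalyses the rate-limiting step of serotonin synthesis, the conversion of tryptophan to 5-hydroxytryptophan. In crustaceans serotonin acts as a neurotransmitter and takes part in the release of neurohormones that govern growth, moulting and reproduction. Daphnids reproduce clonally under favourable conditions, so that the animals of a clone are close to genetically identical. Each array holds the RNA of a whole animal, hence fewer cells of a type and less RNA per cell cannot be told apart.

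The probes were selected on measured values. For each probe, the signal of T+ 5 was subtracted from the lowest of T+ 3, 7 and 9, and that of clone 17 5 from the lowest of clone 17 3, 7 and 9, in the normalized log2 values that the authors deposited. The 10573 probes marked well above background on the arrays of T+ and clone 17 numbered 3, 7 and 9 were ranked by the smaller of the 2 differences, and the first 150 were kept. In 2541 of the 10573 probes (24.0%) number 5 lay below the other 3 animals in both clones, which is a description of the choice and not a test. None of the 150 had to be left out for having all mutant animals on one side of W or for being on the list of probes treated separately. The files pair none of the 150 probes with a gene name, and none is among the 337 probes that the supplementary tables of the study annotate. The probes are therefore described by their values, with 2 of them named by their array identifier, and no probe sequence was used here.

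The selection separated the arrays widely. The smaller of the 2 differences was 8.87 on the log2 scale for the first probe and had a median of 5.33. It was 4.483 and 4.482 for the last 2 probes inside the selection and 4.480 and 4.451 for the first 2 outside it. The mean of T+ 5 and clone 17 5 lay below the mean of the other 6 animals of T+ and clone 17 by 4.88 to 9.73 on the log2 scale (median 6.74). As 93 of the 150 probes were not well above background in either T+ 5 or clone 17 5, these measured differences are limited there by the background. The drop within T+ was the larger one in 140 of the 150 probes, with a median of 7.11 in T+ and of 5.37 in clone 17. Clone 17 3 had the lowest value of the 6 higher animals in 130 probes. In the T+ and clone 17 animals numbered 3, 7 and 9, these probes ranged over mean log2 values of 8.58 to 17.24 (median 11.91), and all 150 were well above background on all 6 arrays.

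T+ 5 and clone 17 5 were outlying animals only within their own clones. The 4 clone 16 animals, which the selection did not use, had low signals as well, so that 6 of the 12 mutant animals were at the low level and 6 at the high level. The median log2 fluorescence of the 150 probes was 4.19 in T+ 5, against 12.05, 12.31 and 12.19 in T+ 3, 7 and 9. It was 5.07 in clone 17 5, against 10.88, 12.16 and 11.995 in clone 17 3, 7 and 9. In clone 16 3, 5, 7 and 9 it was 3.86, 5.25, 5.47 and 3.86, against 9.44, 6.97, 5.80 and 9.64 in W 3, 5, 7 and 9. Thus each clone 16 animal was below each W animal in this median, and the W animals formed a higher pair, W 3 and W 9, and a lower pair, W 5 and W 7. The map of the fluorescence of the 150 probes shows this for single probes.

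**Figure D1:**
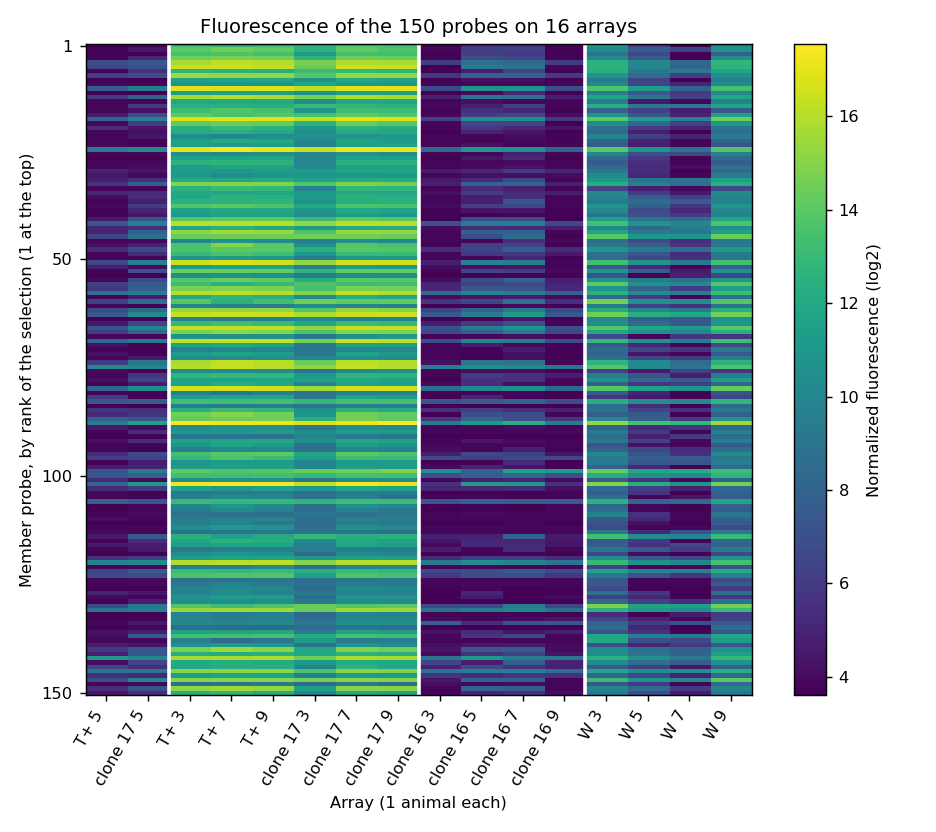
Normalized log2 fluorescence (colour) of the 150 probes (rows, by rank of the selection) on the 16 arrays (columns, 1 animal each), with white lines between the low and the high animals of T+ and clone 17, clone 16 and W. The 4 clone 16 columns look like those of T+ 5 and clone 17 5, with medians of 3.86 to 5.47, and W 3 and W 9 are brighter than W 5 and W 7.

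Taken as a part of the whole signal of an array, the same probes differed by more than 2 orders of magnitude between animals. They carried 0.0535% of the processed signal of all gene probes in T+ 5, against 12.6%, 15.0% and 13.5% in T+ 3, 7 and 9. In clone 17 5 they carried 0.131%, against 5.61%, 13.8% and 12.2% in clone 17 3, 7 and 9. The share was 0.0430%, 0.131%, 0.178% and 0.0447% in clone 16 3, 5, 7 and 9, and 2.19%, 0.407%, 0.253% and 2.25% in W 3, 5, 7 and 9. The highest clone 16 animal was below the lowest W animal. The highest W animal was below the lowest of the 6 high T+ and clone 17 animals, by which the probes were chosen. These shares were taken before normalization between arrays. On W 7 the lowest and the median processed signal were above those of every other array, and the part of this in its share was not tested. The 10 brightest of the probes made up 6.03%, 6.89% and 6.20% of the signal in T+ 3, 7 and 9, so that a few abundant transcripts held a large part of the share.

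**Figure D2:**
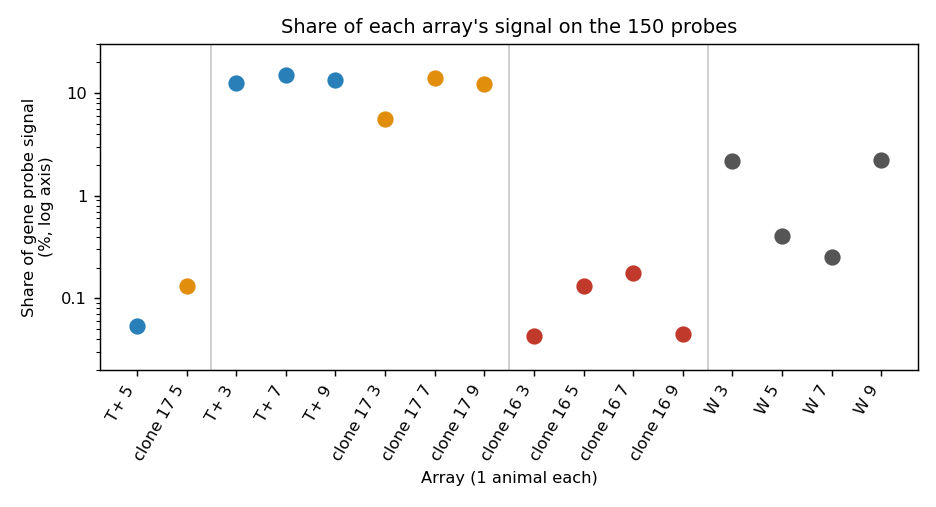
Share of the processed signal of all gene probes carried by the 150 probes (percent, log axis) on each of the 16 arrays, 1 point per animal, coloured by clone. Clone 16 lies at 0.0430% to 0.178%, next to T+ 5 and clone 17 5, W at 0.253% to 2.25%, and the other T+ and clone 17 animals at 5.61% to 15.0%.

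The number of probes detected was low in the same mutant animals and also in W 7. Of the 150 probes, 37 were marked well above background in T+ 5 and 55 in clone 17 5. The numbers were 30, 60, 69 and 28 in clone 16 3, 5, 7 and 9, and 148, 95, 54 and 147 in W 3, 5, 7 and 9. W 7 thus had fewer of them above this mark than clone 16 5, clone 16 7 and clone 17 5. In all, 77 of the 150 probes were not well above background in any clone 16 animal and 27 were so in all 4, whereas no probe was below this mark in all W animals and 52 were above it in all 4. Array W 7 had the fewest gene probes above this mark of all 16 arrays, 9852 of 51424, and the part of this in the low signal of W 7 was not tested.

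To place clone 16 and W between the 2 levels, each value was expressed relative to them, 0 being the mean of T+ 5 and clone 17 5 and 1 the mean of the other 6 T+ and clone 17 animals. The median position over the 150 probes was -0.07, 0.03, 0.06 and -0.07 in clone 16 3, 5, 7 and 9, against 0.64, 0.29, 0.11 and 0.67 in W 3, 5, 7 and 9. In all 150 probes, the 4 clone 16 animals were below the 6 high T+ and clone 17 animals. Likewise T+ 5 was inside the range of the clone 16 animals in 110 probes, and clone 17 5 in 110 probes. The 4 W animals were all below the 6 high animals in 134 probes. The probes were chosen for high values in these 6 animals, so the counts against them are in part fixed by the choice. They were not made over all tested probes and only describe the selection. On average W 3 and W 9 lay at 0.9 or more of the way to the high level in 16 probes and under 0.5 of it in 31. The plot of relative positions shows the spread of the probes within each animal.

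**Figure D3:**
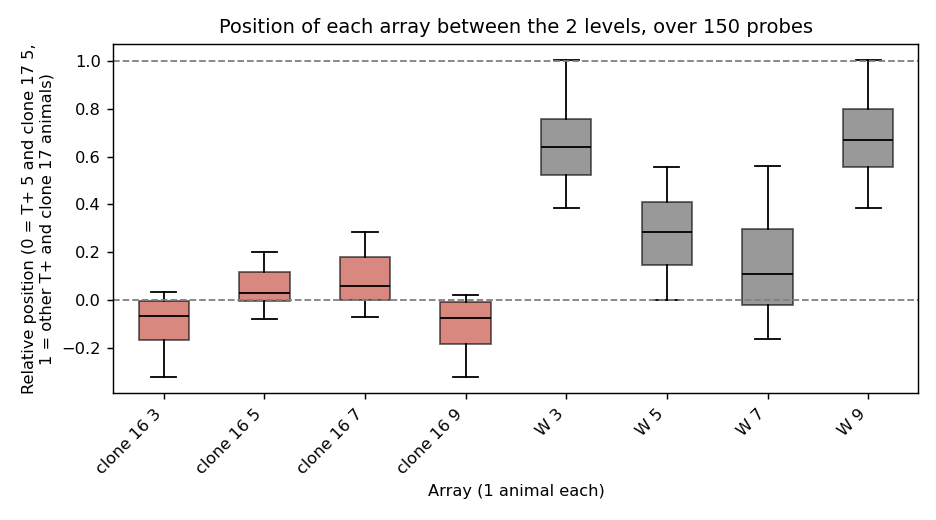
Relative position of the 4 clone 16 and the 4 W animals between the level of T+ 5 and clone 17 5 (0, lower dashed line) and that of the other T+ and clone 17 animals (1, upper dashed line). Boxes give the median and quartiles over the 150 probes and whiskers the 5th and 95th percentiles; clone 16 medians lie between -0.07 and 0.06, and W medians between 0.11 and 0.67.

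Clone 16 and W were compared by limma on their 8 arrays alone, because the spread within T+ and clone 17 is fixed by the selection. All 150 probes had a lower mean in clone 16 than in W, whereas 34.8% of the 17286 probes tested had one. The median difference of the 150 was -2.90 on the log2 scale, with a range of -6.79 to -0.23, and that of all tested probes was 0.11. At an adjusted p below 0.05 and at least 1.5-fold, 37 of the 150 were called lower in clone 16 (24.7%) and none higher, against 2.04% of all tested probes called lower and 2.48% called higher. The filter for testing, a signal above background on at least 4 of the 16 arrays, was met by every one of the 150 through the 6 arrays that chose them. On the 8 arrays compared, 85 of the 150 met it on at least 4, and 28 of the 37 called probes were among these, so the share called is a description and no support beyond it. An unadjusted p below 0.05 by limma was reached by 110 of the 150, all of them lower. Of all tested probes, 7.09% had such a p and a lower mean in clone 16. The 4 clone 16 animals were all below the 4 W animals in 62 of the 150 probes, as against 4.82% of all tested probes, and in the other 88 the groups overlapped or touched. The 37 called probes all belonged to these 62, and their differences ranged from -6.79 to -1.77.

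The number of probes called depended on single animals, for the 150 and for all tested probes alike. By limma, it was 1 of the 150, and 48 of all tested probes called lower, without clone 16 3, and 1 and 58 without clone 16 9. It was 9 and 109 without clone 16 5, 11 and 148 without W 3, and 12 and 112 without W 9, but 84 and 628 without W 7. No probe was called higher in any of these fits, and the median difference stayed between -3.77 and -2.28. With a model over all 16 arrays, in which the spread of T+ and clone 17 made by the selection enters the error, none was called.

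**Figure D4:**
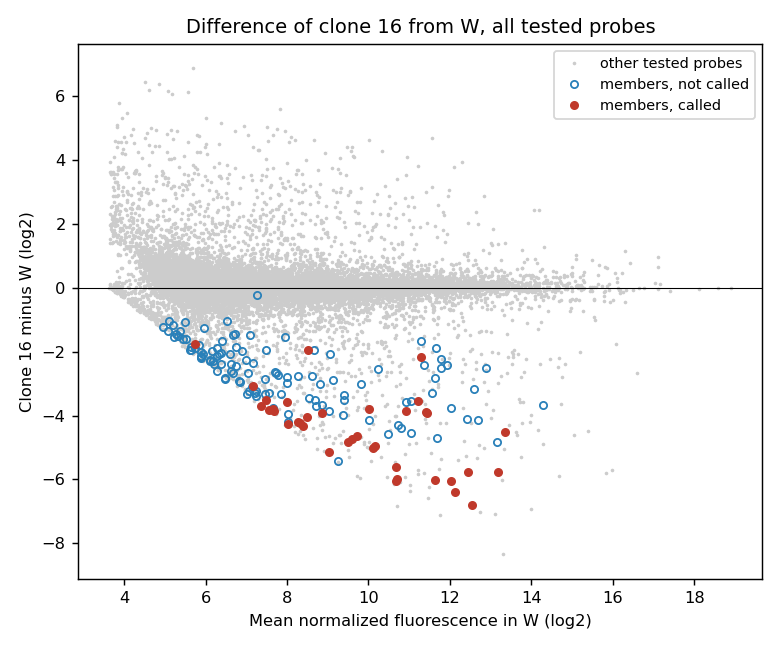
Difference of clone 16 from W (log2, vertical axis) against the mean log2 fluorescence in W (horizontal axis) for the 17286 tested probes, with the 150 selected probes as red points where called lower (37) and blue circles where not. All 150 lie below 0, and the lower edge of the cloud is the dimmest signal that an array gives.

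For the 77 probes not well above background in any clone 16 animal, the difference from W has only a lower bound. For each clone 16 array, the dimmest signal marked well above background was taken, or the signal of the probe where that was higher. W entered as measured, also on arrays where the probe was not well above background, so the bounds hold only for the measured W means. Against these, 63 of the probes were at least 1.04-fold to at least 15.0-fold lower in clone 16 (median of the bounds 2.48-fold). For 14 no fold could be given. Of the 77, 16 were called lower, and of the 27 probes well above background in all clone 16 animals, 8 were. The measured median difference was -2.39 for the 77 and -3.17 for the 27, whose median level in W was 6.63 and 11.56 on the log2 scale. With the 77 at their bounds, the median over all 150 was -1.98.

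The probe first in the selection, CUST_90246_PI429715507, had log2 fluorescence of 3.66, 5.37, 5.44 and 3.71 in clone 16 3, 5, 7 and 9, against 11.44, 6.15, 3.67 and 10.19 in W 3, 5, 7 and 9. It had 3.63 in T+ 5, against 13.23, 12.85 and 13.11 in T+ 3, 7 and 9, and 3.71 in clone 17 5, against 12.58, 13.62 and 13.45 in clone 17 3, 7 and 9. W 7 was inside the range of clone 16 and W 3 was the W animal nearest to the high level. The probe was well above background in 3 of the 4 W animals and in no clone 16 animal. Against the W mean as measured, its mean in clone 16 was at least 4.52-fold lower. The measured difference was -3.32 ± 1.63 (SE, n = 4 each), which was not called (limma, adjusted p = 0.373).

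The probe with the largest called decrease, CUST_76774_PI429715507, had 3.84, 6.94, 8.52 and 3.75 in clone 16 3, 5, 7 and 9, against 13.97, 10.99, 10.82 and 14.43 in W 3, 5, 7 and 9. In T+ 5 it had 6.37, against 14.33, 14.37 and 14.43 in T+ 3, 7 and 9, and in clone 17 5 it had 8.60, against 14.50, 14.53 and 14.29 in clone 17 3, 7 and 9. Clone 16 and W did not overlap, the probe was well above background in 2 of the 4 clone 16 animals, and W 3 and W 9 were at the high level of T+ and clone 17. The mean was 5.76 ± 2.36 in clone 16 and 12.55 ± 1.91 in W (SD, n = 4 each), a difference of -6.79 ± 1.33 (SE; limma, adjusted p = 0.0317). The call was lost without W 3 (adjusted p = 0.0797), W 9 (0.0894), clone 16 3 (0.111), clone 16 5 (0.0717) or clone 16 9 (0.107), as well as over all 16 arrays (0.12).

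The probes also varied together inside the clones that were not used to choose them. W 3 and W 9 were both above W 5 and W 7 in 148 of the 150 probes, and in 28.3% of all tested probes. W 7 was the lowest of the W animals in 128 probes and W 5 in 22, and the highest was W 9 in 97 and W 3 in 52. In clone 16, the animals 5 and 7 were both above 3 and 9 in 110 probes, and in 11.8% of all tested probes. Most probes were not well above background in clone 16 3 and 9. The SD over the 4 animals had a median of 0.68 in clone 16 and of 1.85 in W for the 150 probes, and of 0.22 in clone 16 and 0.41 in W for all tested probes. Over the 8 clone 16 and W arrays, the Pearson correlation between pairs of the 150 probes had a median of 0.90 and was above 0 in 99.9% of the 11175 pairs, as a description that includes the difference between the clones and shares the same 8 arrays.

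Only 3 selected probes had repeated spots, 2 to 9 each, whose log2 signals had an SD of 0.0052 to 0.56 within an array (median 0.090). This covers the error within an array and not that between arrays or hybridisations. The 161 spots of the 150 probes were spread over the array, with 50, 41, 37 and 33 in successive bands of its rows, from the first to the last, and 38, 39, 37 and 47 in successive bands of its columns.

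The place of the arrays on the slides coincided in part with the signals. T+ 5 and clone 17 5 were both scanned from position 4 along their slides, which also held clone 16 5 and, by its spot coordinates, W 7, whose file names no slide. Clone 16 5 was not the lowest of its clone, whereas W 7 was the lowest of W in 128 probes. The low arrays clone 16 3 and clone 16 9 lay at position 3 and clone 16 7 at position 2. Without clone 16 5 and W 7, a setting chosen after seeing the data, 32 of the 150 and 311 of all tested probes were called lower, and the median difference of the 150 was -4.0. The part of the position in the low values of T+ 5 and clone 17 5 cannot be told apart from that of the animal, since each animal had a single array. Within slide 1, the mean of clone 16 5 and 9 was below that of W 3 and W 5 in all 150 probes (median difference -3.33), and both clone 16 animals were below both W animals in 130. On slide 2, the spot coordinates of W 7 match the only place that no other array of the series filled. With W 7 counted there, after seeing the data, the mean of clone 16 3 and 7 was below that of W 7 and W 9 in 149 probes (median -2.55), and both clone 16 animals were below both W animals in 77. Against W 9 alone, the mean was lower in all 150 (median -4.62) and both clone 16 animals were lower in 149. These counts within slides rest on few animals and were not made over all tested probes, so they only describe the selected probes. With slide as a fixed block and W 7 on slide 2, limma called 15 of the 150 and 246 of all tested probes lower.

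Among the probes with a gene name in the study's list of 51 probes under enriched gene ontology terms, those highest in the ranking were cuticle probes, outside the selection. Cuticular proteins bind chitin and build the exoskeleton, which daphnids shed and form anew at each moult, as adults too. The list was chosen on these same arrays and held 13 cuticle probes by name. Of these 13, 4 were lower in both T+ 5 and clone 17 5 than in the other animals of their clones and none was higher in both. Of the 10573 ranked probes, which did not include all 13, 24.0% were lower in both and 22.6% higher. In some cuticle probes clone 17 5 was instead the highest of its clone. The probe for cuticular protein 49Ag had 9.37 in clone 17 5, against 8.92, 8.64 and 8.71 in clone 17 3, 7 and 9. It had 8.61 in T+ 5, against 9.04, 8.67 and 8.75 in T+ 3, 7 and 9. Over the 51 probes the counts were 13 and 7, and over the 337 annotated probes 67 and 64.

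The first in the ranking, at place 245, was a probe for a cuticle protein that the selection treats separately. The next, at place 279, was the probe for cuticular protein hypothetical 28 precursor. It had 7.83 in T+ 5, against 13.22, 12.29 and 12.98 in T+ 3, 7 and 9, and 9.78 in clone 17 5, against 14.52, 13.30 and 13.23 in clone 17 3, 7 and 9. It had 6.84, 6.20, 9.06 and 6.94 in clone 16 3, 5, 7 and 9, against 15.00, 11.77, 11.49 and 14.84 in W 3, 5, 7 and 9. The low animals were the same as for the 150 probes, and W 3 and W 9 were again the higher W pair. Here, however, W 3 and W 9 were above all T+ and clone 17 animals, and clone 17 3 was the highest of clone 17, whereas in 130 of the 150 probes it was the lowest of the 6 high animals. The difference of clone 16 from W was -6.02 ± 0.996 (SE, n = 4 each; limma, adjusted p = 0.018). The study listed this probe from these same arrays, so the p-value gives no separate support.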

How the data were processed

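The authors deposited for each array the spot intensities written by Agilent Feature Extraction (10.5 in the submitters' processing notes), with a processed signal corrected for background, and a table of normalized log2 values, made by quantile normalization and centred on each probe's median. The deposited log2 values served to choose the 150 probes. All other values start from the processed signals, in log2 with a floor of 1, without control and outlier spots, averaged over the spots of a probe and quantile normalized. For the 150 probes they differed from the deposited values by at most 0.207 after centring. No spot was saturated. Whether the processed signals of W 7, with their higher lowest value and median, were corrected for background in the same way was not tested. Probes above the 95th percentile of 2840 negative control spots on at least 4 of 16 arrays were tested (17286). limma 3.58.1 in R 4.3.3 compared clone 16 with W, two-sided, with Benjamini-Hochberg adjustment over all tested probes. The labels name single animals but not their cultures, so p-values measure the spread between these animals.

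The members and lists were chosen with earlier results of these data known. Named were the first probe of the ranking and the one with the largest called decrease, since at most 2 unnamed probes that fell are printed, and annotated probes. The keyword lists other than cuticle were not described further. The list of lipid and sterol enzymes matched 13 probes, as many as cuticle, with 1 lower and 4 higher in both animals. There were 6 chitin enzyme probes (1 lower) and 1 each for digestive enzymes, cell cycle and immune genes. Alternatives were 75th percentile scaling, the deposited values, normexp background correction with an offset of 50, other filters and fold limits, outlier spots kept, the methods' ANOVA with Dunnett's test, all 16 arrays in one model, slide (also with W 7 placed on slide 2) and replicate number as blocks, array weights, a variance trend, each array left out, and 2 other ways of choosing the members. Signal over background limits the dim probes, and the number of animals limits the precision. The procedure was tested on simulated data.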

Additional observations from a re-analysis of the deposited data

Results flagged for a closer look

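Among the clones' 4 animals, one value stood far from the other 3 in 6 cases, all of them in animals by which the probes were chosen, so these cases describe the choice. By chance about 5% of such groups would hold one. In T+ the animal T+ 5 stood apart in the median log2 fluorescence of the 150 probes (4.19), in their share of the signal (0.0535%), in CUST_90246_PI429715507 (3.63) and in CUST_76774_PI429715507 (6.37). In clone 17 the animal clone 17 5 stood apart in CUST_90246_PI429715507 (3.71) and in CUST_76774_PI429715507 (8.60). No clone 16 or W animal stood apart in these 4 measures.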

How the results depend on the processing

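In 29 alternatives none of the 150 probes was called higher in clone 16, and the median difference stayed below 0, between -4.0 and -1.85, where it was recomputed. The count of 37 called lower ranged from 0 to 84. It was 1 without the filter on dim probes, 0 over all 16 arrays, 0 by ANOVA with Dunnett's test, 65 with slide as a fixed block, 71 with slide as a random block (both without W 7, whose slide is not given) and 69 with array weights. With W 7 placed on slide 2 by its coordinates, after seeing the data, it was 15 with the fixed and 31 with the random block. Of all tested probes, 352 were called lower and 429 higher, but 56 and 159 without the filter, 145 and 22 over all 16 arrays, 63 and 4 by ANOVA, and 654 and 693 with array weights. With slide as a fixed block 566 were lower. Without the arrays at position 4, chosen after seeing the data, 311 were lower and 267 higher. Leaving out 1 array gave 1 to 84 of the 150, and 48 to 628 lower and 121 to 489 higher of all probes. With the replicate number as a block, 0 of the 150 were called, and 23 lower and 117 higher of all probes. The correlations of same-numbered clone 16 and W arrays were 0.11, -0.04, 0.06 and -0.25, and not every one correlated best with its own number. T+ and clone 17 were not part of this, and whether the numbers stand for a shared batch was not tested. In the fit on all 16 arrays and the ANOVA, the spread of T+ and clone 17 enters the error; for the other changes the cause was not tested. The difference of CUST_76774_PI429715507 was -7.76 to -5.20 (adjusted p 0.0158 to 0.245) and that of CUST_90246_PI429715507 was -4.99 to -2.12 (0.0771 to 1), none reversed. Among members well above background on at least 4 of the 8 arrays, also chosen after seeing the data, 25 of 75 were called lower, and 270 lower and 349 higher of 13592 probes.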

Other observations

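Some annotated probes ran opposite to the 150. The probe for tryptophan 2,3-dioxygenase, the first enzyme of tryptophan breakdown to kynurenine, had log2 fluorescence of 6.93 in T+ 5, against 3.83, 3.83 and 3.78 in T+ 3, 7 and 9, and of 6.67 in clone 17 5, against 3.82, 3.80 and 3.87 in clone 17 3, 7 and 9. It had 6.72, 7.09, 5.18 and 6.15 in clone 16 3, 5, 7 and 9, against 3.76, 3.80, 3.94 and 3.85 in W 3, 5, 7 and 9. The signal was well above background in T+ 5, clone 17 5 and clone 16 3, 5 and 9, and in no other animal, so that W 5 and W 7 were not set apart from W 3 and W 9. The mean was at least 1.16-fold higher in clone 16 than in W, a bound that includes clone 16 7, which was not well above background. The measured difference was 2.45 ± 0.38 (SE, n = 4 each, by limma with adjusted p = 0.0141). The study picked this gene on these same arrays, so the p-value gives no separate support.

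The 150 probes highest in T+ 5 and clone 17 5 were chosen by the ranking turned round. They were taken from the probes well above background in these 2 animals, and no probes were left out. The pools differ, so the steps of the 2 sets are not compared. These probes had steps of 7.02 for the first and 3.58 for the last. They carried 4.41% to 5.56% of the signal in T+ 5 and clone 17 5, against 0.0326% to 0.150% in the other 6 animals of these clones. In clone 16 they carried 4.56% to 5.62%, against 0.258% to 2.85% in W. The range of clone 16 overlapped that of T+ 5 and clone 17 5, and all W animals lay between the 2 levels. No test was made, since both sets were chosen on T+ and clone 17.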
